A study of Mus musculus with 5 samples.

Results

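Foxp3, the gene of the lineage factor of regulatory T cells, and 9 genes beside it on mouse chromosome X were followed through 5 RNA-seq libraries of follicular regulatory T (Tfr) cells. The 10 genes, among 57186 gene IDs in the deposited tables, are Foxp3, Flicr, Ppp1r3f, Ccdc22, Cacna1f, Syp, Prickle3, Plp2, Gpkow and Wdr45. They lie within 170.9 kb of one another. They were chosen by name because a low Foxp3 level in the Cebpa_KO libraries was already known, and the question was whether the difference stops at Foxp3 and Flicr or runs through the locus. Differences of these genes between the groups are therefore given as a description, with no test. The Cebpa_KO group held 2 libraries from Foxp3-Cre Cebpa-flox/flox mice. In these, Foxp3-driven Cre recombinase removes the floxed Cebpa gene, which encodes the transcription factor C/EBPα, from Foxp3-expressing cells. The WT group held 3 libraries from Foxp3-GFP reporter mice. All mice had received imiquimod, which activates TLR7, and splenic CD4 T cells positive for Foxp3, CXCR5, PD-1 and ICOS were sorted at 21 days. Each library pools sorted cells of several mice, so errors measure the spread between pools. Both groups carry a Foxp3-driven construct, a reporter in WT and Cre in Cebpa_KO. The labels do not say whether either alters the Foxp3 gene itself or how it is joined to it. Nor do they say whether females carried it on 1 or both X chromosomes. The loss of Cebpa and the kind of Foxp3 construct cannot be told apart here.

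Foxp3 is a forkhead transcription factor that holds regulatory T cells in their suppressive state, and its continued expression depends on a promoter and several conserved non-coding elements inside and just upstream of the gene. Flicr is a long non-coding RNA that starts upstream of Foxp3 and was described in mouse regulatory T cells as a brake on Foxp3 expression in cis. The other neighbours are not known as regulatory T cell genes.

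Aligned depth was 6.80 and 6.76 gigabases in Cebpa_KO and 6.77 to 7.08 gigabases in WT. Levels below are TPM, a value per transcript length, scaled between libraries, and differences are on the log2(scaled TPM + 1) scale, Cebpa_KO minus WT, with their standard error. Cebpa, the deleted gene, stood at 0.317 and 0.550 in Cebpa_KO and at 12.9, 17.7 and 12.8 in WT. Sex followed genotype: Xist, the RNA of the inactive X chromosome, stood at 11.4 and 10.7 in Cebpa_KO and at no more than 0.0220 in WT, and 4 genes of the Y chromosome summed to 0 and 0.0311 in Cebpa_KO and to 151 to 162 in WT. All 10 genes are X-linked, and sex and genotype cannot be told apart. Cd4, Cxcr5, Pdcd1 and Icos, the genes of the other sort markers, were well expressed in all libraries, the lowest value being 141.4 for Cxcr5 in Cebpa_KO replicate 2. Of these, Cxcr5 and Icos fell in Cebpa_KO (limma, adjusted p = 0.0206 and 0.0207), where 9.82% of all tested genes fell. Cd4 and Pdcd1 did not pass (limma, adjusted p = 0.0638 and 0.250), though they too lay below WT without overlap.

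The starts of Foxp3, Flicr and Ppp1r3f, which share the 5' end of the locus, are shown because the deposited gene models and the assembled transcripts place the start of Foxp3 RNA differently. Syp, further along, is shown as the gene with the next most negative difference after Foxp3 and Flicr, and was picked after its values were seen. In the RefSeq table, on build GRCm38.p6, 9 of the 10 genes had a promoter window of 250 bases before to 50 bases after the start under the members' own symbols, and Foxp3 had 2 such windows. Capitals mark the letters TATAAA or TTGCNNAA, a core of C/EBP binding sites, found on either strand, where the other strand reads TTTATA or TTNNGCAA.
Foxp3, first RefSeq start, GRCm38.p6 chrX:7579426-7579725, + strand: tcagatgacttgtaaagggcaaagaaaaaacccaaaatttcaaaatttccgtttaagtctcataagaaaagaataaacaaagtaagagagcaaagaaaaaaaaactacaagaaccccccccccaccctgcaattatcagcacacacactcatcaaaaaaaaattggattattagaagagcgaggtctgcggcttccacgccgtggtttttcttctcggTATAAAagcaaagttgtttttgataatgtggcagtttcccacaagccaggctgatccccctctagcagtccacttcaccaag
Foxp3, second RefSeq start, GRCm38.p6 chrX:7580233-7580532, + strand: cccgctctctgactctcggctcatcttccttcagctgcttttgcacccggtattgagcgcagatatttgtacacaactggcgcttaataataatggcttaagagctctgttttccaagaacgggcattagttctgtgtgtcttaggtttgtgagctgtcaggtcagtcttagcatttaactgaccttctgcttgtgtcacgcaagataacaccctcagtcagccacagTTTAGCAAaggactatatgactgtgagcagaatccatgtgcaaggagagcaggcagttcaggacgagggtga
Flicr, GRCm38.p6 chrX:7573350-7573649, + strand: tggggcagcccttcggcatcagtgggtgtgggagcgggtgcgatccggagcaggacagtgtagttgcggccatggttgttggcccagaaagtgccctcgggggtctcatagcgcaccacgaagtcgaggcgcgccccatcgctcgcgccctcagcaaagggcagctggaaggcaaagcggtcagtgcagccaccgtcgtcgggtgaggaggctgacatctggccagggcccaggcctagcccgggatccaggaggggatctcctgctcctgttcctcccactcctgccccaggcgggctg
Ppp1r3f, GRCm38.p6 chrX:7574232-7574531, - strand: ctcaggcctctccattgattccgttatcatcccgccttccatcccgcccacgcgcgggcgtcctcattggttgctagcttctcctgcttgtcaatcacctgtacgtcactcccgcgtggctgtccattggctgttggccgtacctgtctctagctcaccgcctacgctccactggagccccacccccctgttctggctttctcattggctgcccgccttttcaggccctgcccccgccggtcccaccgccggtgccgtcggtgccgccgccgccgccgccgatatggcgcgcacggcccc
Syp, GRCm38.p6 chrX:7638330-7638629, + strand: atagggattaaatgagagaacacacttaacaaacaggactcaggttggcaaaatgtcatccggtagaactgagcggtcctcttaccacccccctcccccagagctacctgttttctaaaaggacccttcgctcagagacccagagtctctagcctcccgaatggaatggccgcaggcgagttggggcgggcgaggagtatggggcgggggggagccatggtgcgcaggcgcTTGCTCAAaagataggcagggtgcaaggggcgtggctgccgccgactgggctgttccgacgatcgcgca
The first Foxp3 window holds TATAAA beginning 32 bases before the start. The second holds TTGCNNAA on the opposite strand, beginning 22 bases before its start, and the Syp window holds it 19 bases before its start. Of 32817 RefSeq windows of this length, 13.6% hold TATAAA and 10.8% hold TTGCNNAA. Among the windows not printed, that of Ccdc22 holds TATAAA, and those of Cacna1f, Prickle3, Gpkow and Wdr45 hold neither. A match describes the letters only. The Flicr and Ppp1r3f windows are richer in G and C, at 67.3% and 66.7%, than the first Foxp3 window, at 40.7%.

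Foxp3 RNA was scarce in the Cebpa_KO libraries. Foxp3 (ENSMUSG00000039521, mm39 chromosome X, 7439883 to 7461484, + strand) stood at 6.74 and 5.58 in Cebpa_KO and at 83.0, 107.3 and 104.8 in WT. The groups did not overlap, and the lowest WT library was far above both Cebpa_KO libraries. The means were 6.16 ± 0.821 (SD, n = 2) in Cebpa_KO and 98.3 ± 13.4 (SD, n = 3) in WT, so that Cebpa_KO held 6.26% of the WT level. The difference was -3.79 with a standard error of 0.15, and only 6 of 16254 tested genes had a more negative one. Among those 6 were the Y chromosome genes Eif2s3y, Ddx3y and Uty, at -6.41, -5.49 and -4.24, whose differences follow the sex of the mice. By level Foxp3 ranked 10361 and 10742 among all gene IDs in Cebpa_KO, against 2431, 1815 and 1876 in WT. In such pools, fewer cells with Foxp3 RNA and less Foxp3 RNA in each cell cannot be told apart.

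Flicr (ENSMUSG00000039545, chromosome X, 7439839 to 7447266, + strand) was lower as well. It stood at 1.82 and 1.59 in Cebpa_KO and at 13.7, 10.7 and 10.1 in WT. No Cebpa_KO library reached the WT range. The means were 1.71 ± 0.167 in Cebpa_KO and 11.5 ± 1.95 in WT, a difference of -2.20 with a standard error of 0.18. Cebpa_KO held 14.8% of the WT level of Flicr. The ratio of the Foxp3 level to the Flicr level was 3.69 and 3.51 in Cebpa_KO and 6.04, 10.03 and 10.4 in WT. Flicr and Foxp3 are annotated 44 bases apart on the same strand and share 7384 bases, so the division of reads between them rests on the authors' transcript assignment.

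**Figure D1:**
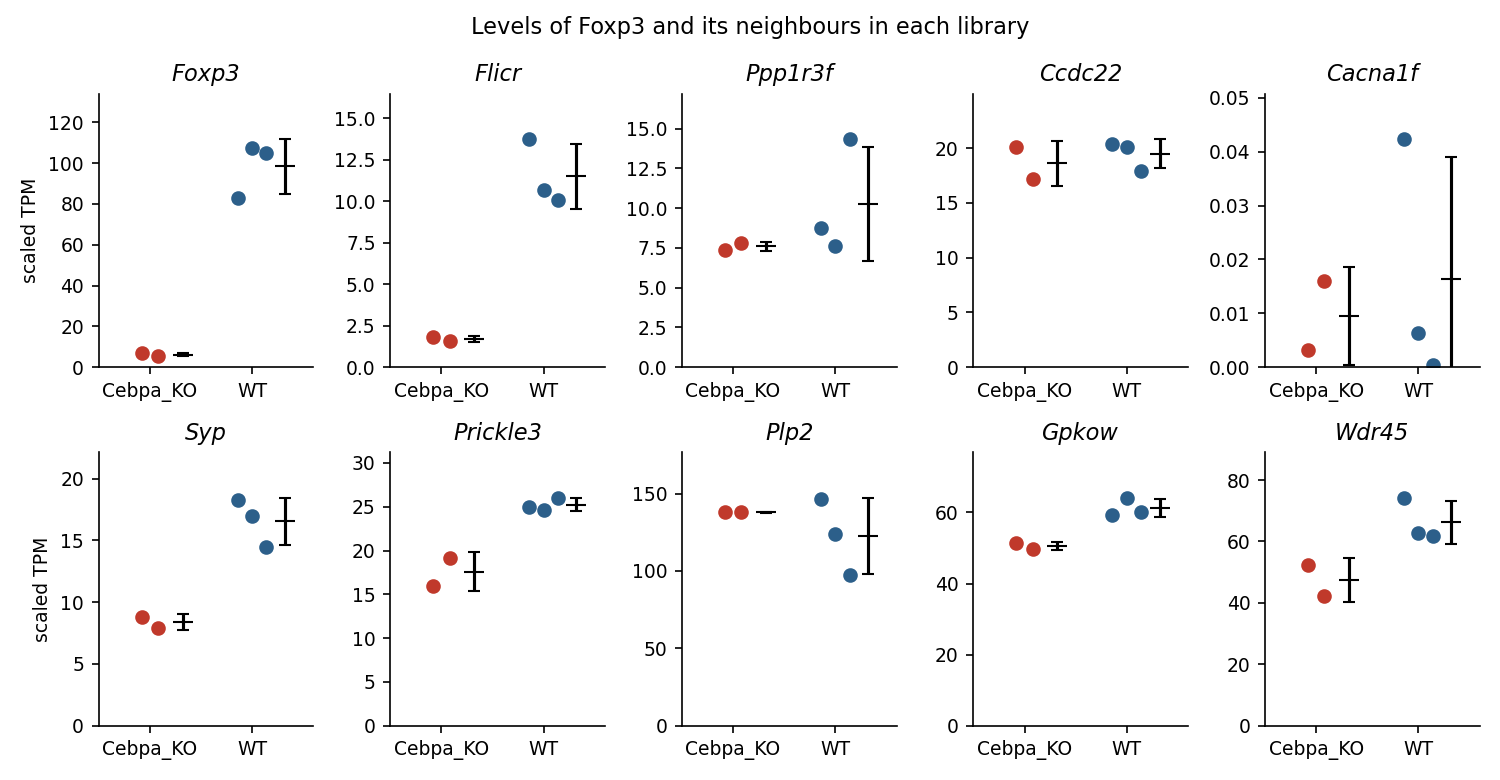
Scaled TPM (vertical axes, linear, from 0) of each of the 10 genes in the Cebpa_KO libraries (red points) and the WT libraries (blue points), with the mean and SD of each group in black. Foxp3 and Flicr are low in Cebpa_KO, at 6.26% and 14.8% of WT. Syp, Prickle3, Wdr45 and Gpkow are also below WT without overlap, at 50.5%, 69.7%, 71.5% and 82.6% of WT. Ppp1r3f, Ccdc22, Plp2 and Cacna1f, which is close to 0, have overlapping groups.

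The deposited tables also list loci that StringTie assembled in each library. They are not independent of the annotation, since the assembled Plp2 locus, for example, has exactly the annotated ends in all 5 libraries. A single assembled locus on the + strand held Foxp3 in every library. Its scaled TPM was 18.2 and 18.0 in Cebpa_KO and 304.1, 337.8 and 360.7 in WT, a mean 18.5 times lower in Cebpa_KO. Its mean read depth per base was 15.3 and 16.2 in Cebpa_KO and 356.5, 453.9 and 456.8 in WT. All libraries ended the locus at the same base, 7461482, but they differed in where it began. In both Cebpa_KO libraries it began at 7445908. In WT it began further upstream, at 7439839, 7443454 and 7443691, and in WT replicate 1 this is the annotated first base of Flicr. The Cebpa_KO start lies 6069 bases after that base on mm39. In RefSeq on GRCm38.p6 the first Foxp3 start printed above lies 6076 bases after the RefSeq start of Flicr. Read depth differs between the groups along with the start, and the part that the lower read depth in Cebpa_KO plays in the later start was not tested.

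**Figure D2:**
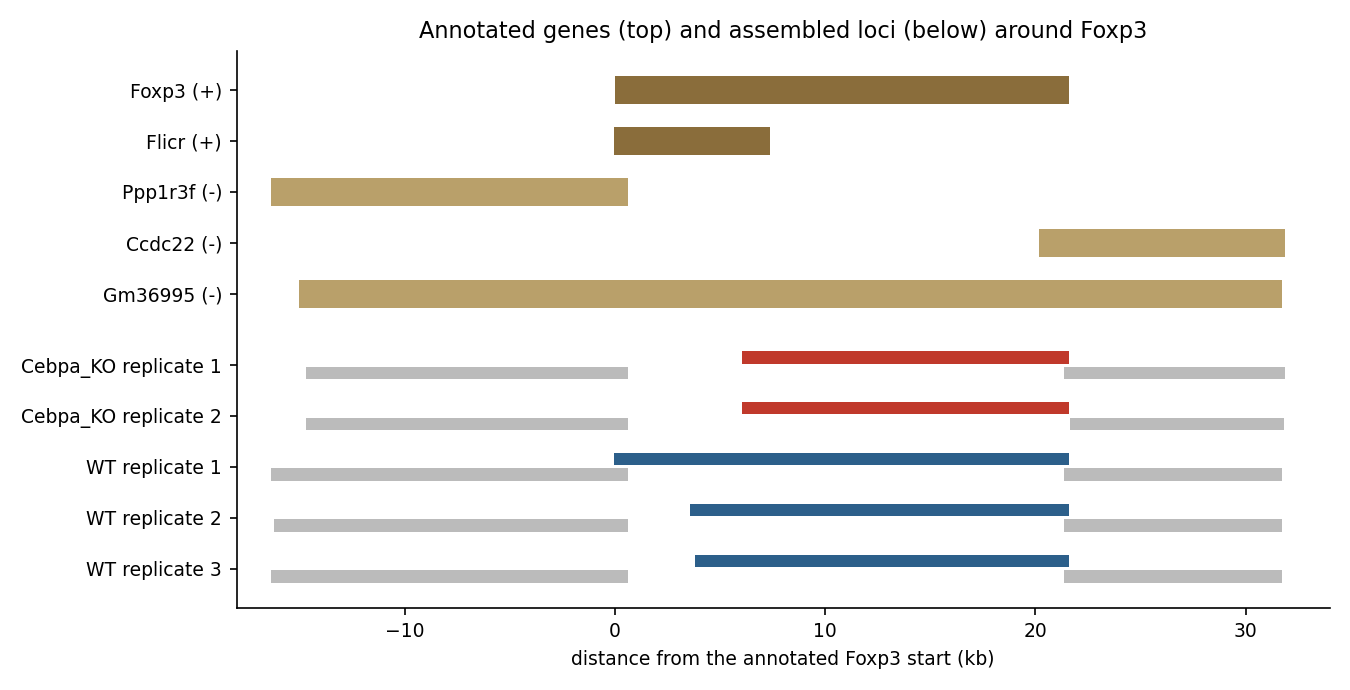
Extent of annotated genes (brown, darker on the + strand) and of assembled loci in each library, by distance from the annotated Foxp3 start in kb. Upper bars of each library are the + strand locus holding Foxp3 (red for Cebpa_KO, blue for WT), lower grey bars the - strand loci of Ppp1r3f and Ccdc22, and the red bars start later than the blue ones.

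The neighbours whose gene bodies overlap Foxp3 on the opposite strand differed much less. Ppp1r3f, which encodes a subunit that directs protein phosphatase 1 to glycogen, runs the other way from the same region and shares 640 bases with Foxp3. It stood at 7.39 and 7.80 in Cebpa_KO and at 8.76, 7.62 and 14.3 in WT. The groups overlapped, WT replicate 3 was the highest, and the difference was -0.34 with a standard error of 0.27. At its assembled locus the levels were 7.65 and 9.01 in Cebpa_KO and 11.3, 11.6 and 15.8 in WT, without overlap. Ccdc22, a component of an endosomal recycling complex, meets the 3' end of Foxp3 tail to tail and shares 1437 bases with it. Its levels were 20.1 and 17.2 in Cebpa_KO and 20.4, 20.1 and 17.9 in WT. They overlapped, with a difference of -0.06 and a standard error of 0.12. The ratio of the Foxp3 level to the Ccdc22 level was 0.336 and 0.325 in Cebpa_KO and 4.07, 5.34 and 5.84 in WT. Against the geometric mean of the 7 expressed neighbours other than Flicr, the Foxp3 level was 0.260 and 0.224 in Cebpa_KO and 2.44, 3.39 and 3.26 in WT.

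Another gene model, Gm36995 (ENSMUSG00000103436, chromosome X, 7424841 to 7471620, - strand), reads through from Ccdc22 past the whole of Foxp3 into Ppp1r3f. It is not among the 10 genes and was named after its values were seen. Gm36995 stood at 14.5 and 12.4 in Cebpa_KO and at 17.3, 16.5 and 17.2 in WT, a difference of -0.32 that did not pass the test over all genes (limma, adjusted p = 0.103). The read depths of Ccdc22 and Gm36995 added up to 104.2 and 87.2 in Cebpa_KO and to 109.5, 112.0 and 99.1 in WT. The assembled locus at Ccdc22 alone had a depth of 100.9 and 88.6 in Cebpa_KO and of 108.5, 110.6 and 91.4 in WT. In 4 libraries this locus ended at 7461261, inside the last part of Foxp3, and in Cebpa_KO replicate 2 at 7461535, past it. The deposited tables thus divide the depth at Ccdc22 between 2 gene models. Since no strand setting is stated, reads from genes that overlap on opposite strands cannot be told apart.

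Beyond Ccdc22 lie a pair of genes best known from the nervous system. Cacna1f, the pore subunit of a calcium channel of the retina, was close to 0 in all libraries, between 0.00311 and 0.0159 in Cebpa_KO and between 0.000378 and 0.0423 in WT, and did not reach the level needed for testing. Syp, which encodes synaptophysin of synaptic vesicles, was detected. It stood at 8.82 and 7.92 in Cebpa_KO and at 18.3, 16.9 and 14.5 in WT. The groups did not overlap, and Cebpa_KO held 50.5% of the WT level, with a difference of -0.90 and a standard error of 0.14. Syp starts 64.8 kb from the Foxp3 start, with Ccdc22 between them at almost the same level in both groups.

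Prickle3, a LIM domain protein of planar cell polarity, also had groups that did not overlap. Its levels were 16.0 and 19.2 in Cebpa_KO and 25.0, 24.7 and 26.0 in WT, a difference of -0.50 with a standard error of 0.11. Plp2, a small membrane protein, was at 138.1 and 137.8 in Cebpa_KO and at 146.8, 123.9 and 97.4 in WT. It was the only tested one of the 10 genes with a positive difference, 0.19 with a standard error of 0.18, and its groups overlapped.

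Gpkow, a splicing-associated protein with G-patch and KOW domains, was at 51.4 and 49.8 in Cebpa_KO and at 59.3, 64.2 and 60.2 in WT. Wdr45, a beta-propeller protein of autophagosome formation, was at 52.4 and 42.4 in Cebpa_KO and at 74.3, 62.7 and 61.8 in WT. Neither gene's groups overlapped, and the differences were -0.27 with a standard error of 0.08 for Gpkow and -0.48 with a standard error of 0.14 for Wdr45. Cebpa_KO held 82.6% of the WT level of Gpkow and 71.5% of that of Wdr45.

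Among the 9 tested genes the groups did not overlap in 6, all with Cebpa_KO below WT, where 28.0% of all tested genes had that order. The 6 were Foxp3, Flicr, Syp, Prickle3, Gpkow and Wdr45. Since the genes were chosen with this comparison known, nothing is read from this count.

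The order of the levels differed between the groups. In Cebpa_KO the means ran from Plp2 at 137.9 through Gpkow at 50.6, Wdr45 at 47.4, Ccdc22 at 18.6, Prickle3 at 17.6, Syp at 8.37, Ppp1r3f at 7.59 and Foxp3 at 6.16 to Flicr at 1.71. Gpkow and Wdr45 overlapped there, as did Ccdc22 and Prickle3. In WT they ran from Plp2 at 122.7 and Foxp3 at 98.3 through Wdr45 at 66.3, Gpkow at 61.2, Prickle3 at 25.2, Ccdc22 at 19.5, Syp at 16.6 and Flicr at 11.5 to Ppp1r3f at 10.2. In WT the ranges overlapped between Plp2 and Foxp3, Wdr45 and Gpkow, Ccdc22 and Syp, and Flicr and Ppp1r3f. These orders hold for annotated rows only. Among assembled loci in WT, the locus holding Foxp3 and Flicr, at 304.1 to 360.7, stood above Plp2, at 97.4 to 146.8. Ccdc22, at 33.7 to 39.0, stood above Prickle3, at 28.8 to 29.7.

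No other listed gene of the region passed the test. In a list of 30 other genes of the region, with Magix between Plp2 and Gpkow and the rest on either side of the 10, 18 were tested, and none was called in either direction (limma), with 2 at an unadjusted p under 0.05, where 19.7% of all tested genes were called. Their median difference was -0.09, against 0.01 over all genes tested. The groups did not overlap in 5 of these genes with Cebpa_KO below WT and in 2 with Cebpa_KO above, against 28.0% and 28.7% of all tested genes. Was, the actin regulator lost in Wiskott-Aldrich syndrome, had the smallest p, at 31.9 and 30.1 in Cebpa_KO and 39.6, 60.1 and 51.6 in WT. It had a difference of -0.66 (limma, adjusted p = 0.0589) and starts 516.9 kb from Foxp3. Was was the 1 gene called lower without WT replicate 1. Pim2, a kinase gene 304.6 kb away, stood at 66.1 and 66.2 in Cebpa_KO and at 76.9, 61.6 and 83.7 in WT, which overlap.

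Of 26 other tested genes that start within 1 Mb of Foxp3, 1 was called higher and 1 lower (limma). The share was 3.85% in each direction, where 9.93% of all tested genes were called higher and 9.82% lower. Both called genes were named after their values were seen. The gene called lower was Gm45208, at 57.0 and 56.9 in Cebpa_KO and 77.4, 70.9 and 77.6 in WT (difference -0.40, adjusted p = 0.0295, limma), and it shares, on the same strand, 5962 bases with Wdr45 and 2092 bases with Praf2. Praf2 stood at 57.0 and 60.8 in Cebpa_KO and at 54.3, 46.7 and 51.5 in WT, a difference of 0.21 that did not pass (limma, adjusted p = 0.180). The gene called higher was 2010204K13Rik, at 8.87 and 6.56 in Cebpa_KO and 3.94, 4.31 and 3.73 in WT (difference 0.79, adjusted p = 0.0322, limma), which starts 128.5 kb on the other side of Foxp3. It was the 1 tested gene within 1 Mb that starts on that side beyond Flicr. On that side the genes of the list of 30, among them Clcn5 and Usp27x, did not reach the level needed for testing.

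**Figure D3:**
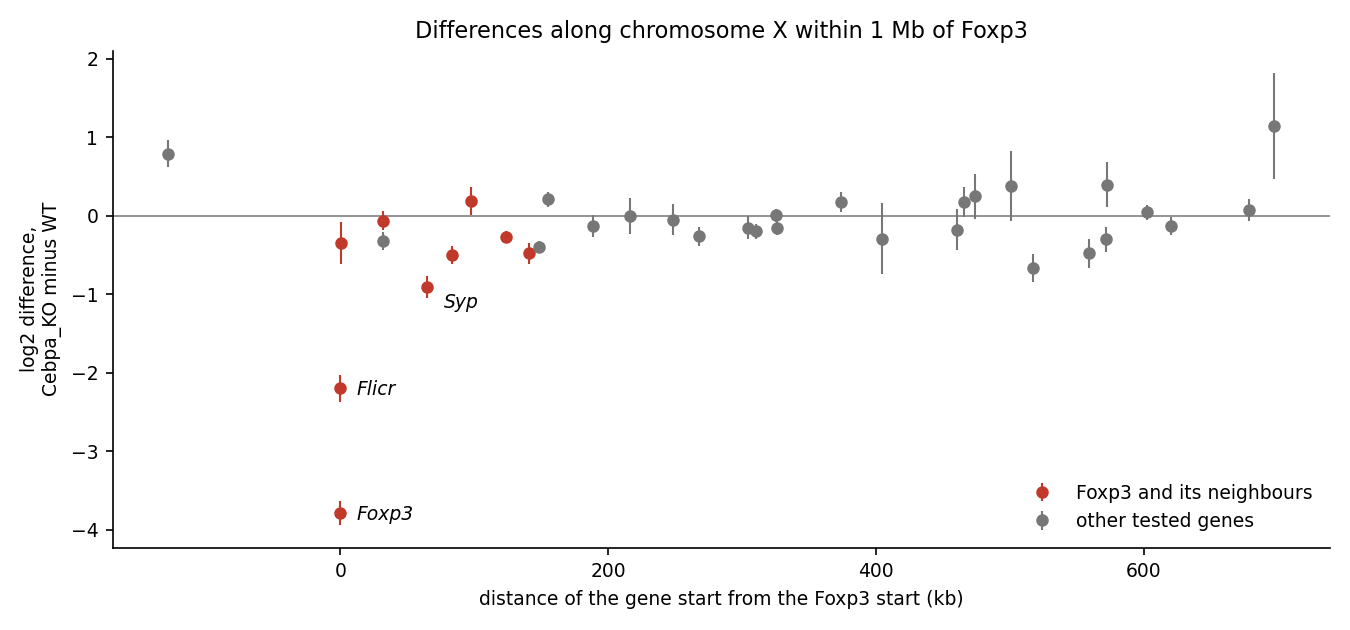
Log2 difference of each tested gene, Cebpa_KO minus WT, with its standard error, by distance of its start from the Foxp3 start in kb, for the 10 genes (red, Cacna1f not tested) and other genes within 1 Mb (grey). Foxp3 at -3.79 and Flicr at -2.20 stand below all others, Syp is next at -0.90, and the grey points lie between -0.66 and 1.15.

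Over chromosome X as a whole, 48 of 507 tested genes were higher and 34 lower in Cebpa_KO (limma), with the 10 genes left out. The shares of 9.47% and 6.71% stand beside 9.93% and 9.82% of all tested genes. Their median difference was 0.07, against 0.01 over all genes. Without Cebpa_KO replicate 1 or Cebpa_KO replicate 2 no X gene was called (limma), with 93 and 87 at an unadjusted p under 0.05, in fits that called 34 and 23 genes in all. Without WT replicate 2, 25 X genes were called, and 827 genes in all. Of 8 genes known to escape X inactivation, 4 were higher and none lower. Pbdc1 stood at 83.0 and 88.7 in Cebpa_KO and at 39.7, 34.9 and 38.1 in WT, and Eif2s3x, a translation initiation factor subunit, at 44.0 and 40.9 in Cebpa_KO and at 19.3, 20.3 and 18.2 in WT. Their differences were 1.17 and 1.10 (limma, adjusted p = 0.00550 and 0.00643). Utp14a and Ddx3x were the others that passed. Jpx, Kdm5c, Ftx and Kdm6a did not, and the groups overlapped for Ftx and Kdm6a.

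Profiles over the 5 libraries were compared with that of Foxp3, leaving out gene models, pseudogenes, receptor or antibody segments and genes of chromosome Y. The 5 closest of the remaining tested genes were Cebpa, Atp6v0d2, Il1rn, Ctse and Ptprv. Closeness was the Euclidean distance between log2(scaled TPM + 1) values centred on each gene's mean. The distances were 0.61, 0.66, 0.68, 1.07 and 1.25. Atp6v0d2, a subunit of the vacuolar proton pump, stood at 0.952 and 1.15 in Cebpa_KO and at 20.7, 20.3 and 18.7 in WT. Il1rn, the IL-1 receptor antagonist, stood at 3.86 and 4.02 in Cebpa_KO and at 53.5, 44.6 and 51.5 in WT. Ptprv, a receptor-type tyrosine phosphatase, was at 4.26 and 5.93 in Cebpa_KO and at 28.2, 52.1 and 45.2 in WT. None of these 5 genes is on chromosome X. Genes of chromosome Y that were left out also had profiles of this kind. Kdm5d, named after its values were seen, stood at 0 in both Cebpa_KO libraries and at 9.96, 13.1 and 11.3 in WT. Its difference of -3.63 follows the sex of the mice. The likeness rests on 5 libraries in 2 groups.

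Factors known to act on the Foxp3 promoter or its conserved elements, or on DNA methylation there, were followed as a list of 37 genes, of which 36 were tested. In Cebpa_KO 7 fell and 1 rose (limma, adjusted p under 0.05), shares of 19.4% and 2.78% where 9.82% and 9.93% of all tested genes fell and rose. The list median was -0.09, against 0.01 over all genes tested. Cebpa itself is one of the 7. Foxo1, which binds the Foxp3 gene and promotes its expression, had 43.0 and 39.1 in Cebpa_KO and 79.9, 78.8 and 81.2 in WT. It fell by 0.95 on the log2 scale (standard error 0.08, limma adjusted p = 0.00623). Zfp281, a zinc finger factor, had 26.8 and 25.8 in Cebpa_KO and 37.4, 36.8 and 41.0 in WT, and fell by 0.53 (limma, adjusted p = 0.0207). Elf1, an ETS factor, had 96.0 and 100.9 in Cebpa_KO and 152.6, 135.5 and 133.4 in WT, and fell by 0.51 (limma, adjusted p = 0.0218). Groups of these 3 genes did not overlap.

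The remaining called genes were Ets1, Stat5b and Tet3, which fell, and Stat5a, which rose. The paired transducers of IL-2 signalling went opposite ways: Stat5a was at 60.8 and 76.2 in Cebpa_KO and 41.7, 37.4 and 45.3 in WT, and Stat5b at 86.9 and 86.2 in Cebpa_KO and 106.7, 135.7 and 127.1 in WT. Their differences were 0.71 and -0.50 (limma, adjusted p = 0.0262 and 0.0429). Tet3, an enzyme that oxidizes methylated cytosine, had a difference of -0.71 (limma, adjusted p = 0.0438). Runx1, Runx3, Cbfb, Nfatc2, Smad3, Creb1 and Dnmt1 did not pass, with differences of -0.30, -0.14, 0.10, -0.57, -0.76, 0.03 and 0.08. Cebpa was the 1 gene called without Cebpa_KO replicate 1, none was called without Cebpa_KO replicate 2 (9 at an unadjusted p under 0.05), and Foxo1 and Cebpa were called without WT replicate 2. Without WT replicate 3, 6 rose and 6 fell, and without WT replicate 1, 8 fell and none rose.

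**Figure D4:**
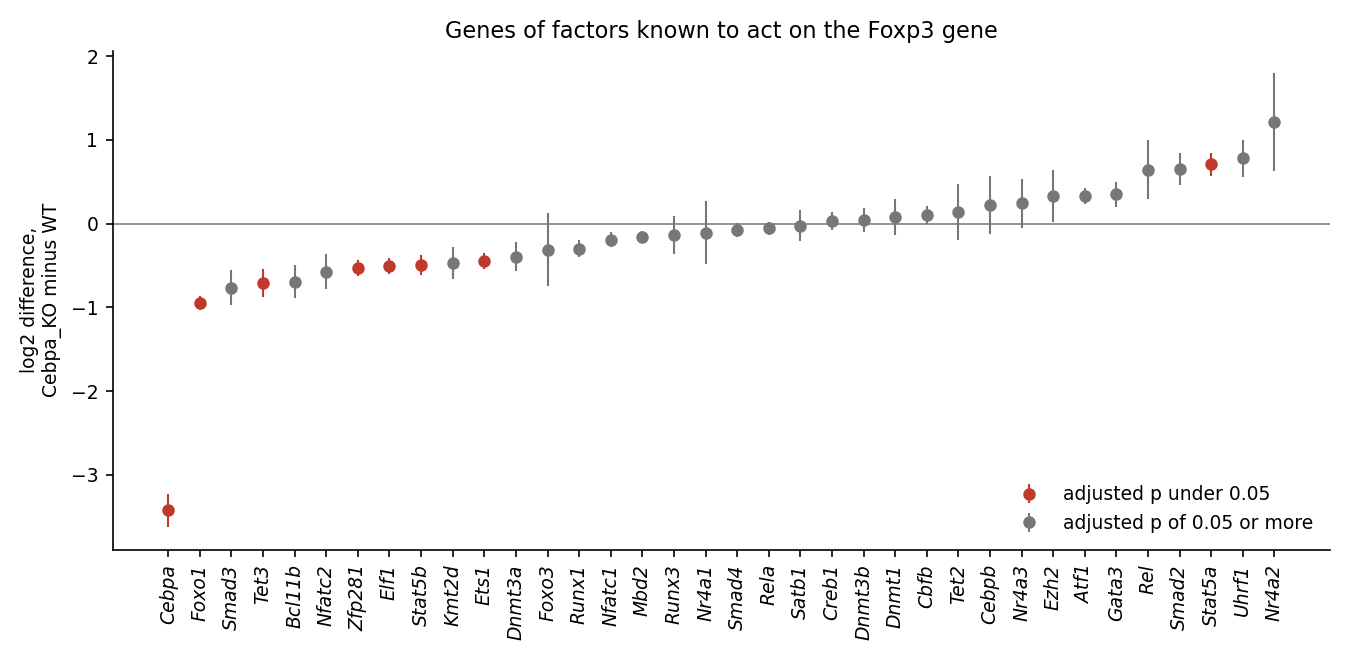
Log2 difference, Cebpa_KO minus WT, with its standard error, for 36 tested genes of factors known to act on Foxp3, in order of the difference. Red points passed limma's adjusted p of 0.05, 7 below 0 and Stat5a above, and Cebpa, the deleted gene, stands lowest at -3.42.

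Genes of proteins known to bind or modify the Foxp3 protein were followed as a list of 30, of which 29 were tested. In Cebpa_KO 1 rose and 1 fell, 6.90% of those tested, where 19.7% of all tested genes were called. Prmt5, an arginine methyltransferase, was at 90.0 and 96.1 in Cebpa_KO and at 56.7, 50.9 and 63.7 in WT, and rose by 0.70 (limma, adjusted p = 0.0184). Hif1a, a hypoxia factor, was at 340.4 and 335.9 in Cebpa_KO and at 488.3, 500.8 and 471.4 in WT, a difference of -0.52 (limma, adjusted p = 0.0126). Ikzf2 and Ikzf4, the Ikaros family partners Helios and Eos, did not pass, with differences of -0.60 and -0.11. None of this list was called without Cebpa_KO replicate 1, Cebpa_KO replicate 2 or WT replicate 2, with 4, 3 and 5 at an unadjusted p under 0.05. With quantile normalization 1 rose and 2 fell.

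Markers of other cells were set beside the Foxp3 level. Of all tested genes 9.82% fell and 9.93% rose. The list of 9 regulatory T cell markers holds Foxp3, on which the choice of genes rests and which is left untested. Of its other genes Il2ra, Ctla4 and Lrrc32 fell and none rose (limma, adjusted p under 0.05). Ikzf2, Ikzf4, Tnfrsf18, Izumo1r and Capg did not pass. The list, with Foxp3 in it, summed to 2559 and 3704 in Cebpa_KO and 4181 to 4224 in WT. Of 5 CD4 T cell markers 4 fell, and they summed to 5894 and 6002 in Cebpa_KO and 7728 to 8762 in WT. Follicular helper cells lack Foxp3 and share the other sort markers. Their 8 markers summed to 1335 and 1298 in Cebpa_KO and 1598 to 1754 in WT. The sort marker Pdcd1 was the largest part, at 632.6 and 663.5 in Cebpa_KO and 682.4 to 761.6 in WT. Il21 was the 1 that rose, at 56.2 and 50.4 in Cebpa_KO and 10.4 to 14.7 in WT. Cxcr5, Bcl6 and Sh2d1a were the 3 that fell. Without passing, Il4 and Cd40lg lay above WT and Pdcd1 and Tox2 below it, with no overlap. The 6 B cell markers summed to 241.8 and 53.3 in Cebpa_KO and 132.0 to 178.2 in WT, the 7 plasma cell markers to 877.7 and 402.6 in Cebpa_KO and 222.2 to 1502 in WT, and the 6 macrophage markers to 121.4 and 48.5 in Cebpa_KO and 60.8 to 108.2 in WT. The 7 markers of CD8 T and NK cells summed to 405.5 and 515.3 in Cebpa_KO and 298.3 to 699.5 in WT. The 6 neutrophil markers summed to 302.3 and 63.8 in Cebpa_KO and 10.9 to 73.2 in WT, and the 6 red cell markers to 2137 and 234.7 in Cebpa_KO and 61.0 to 709.9 in WT. Of these lists, 1 CD8 T and NK cell marker, Klrb1c, and 1 B cell marker, Cd22, fell, and 1 plasma cell marker, Ighg1, rose. The macrophage, neutrophil and red cell lists had no gene that passed (limma). Ighg1 stood at 287.5 and 111.2 in Cebpa_KO and at 0.254, 0.205 and 3.09 in WT. Its difference of 6.62 was the highest of all tested genes (limma, adjusted p = 0.00725). Klrb1c, Cd22 and Ighg1 were named after their values were seen. None of these marker genes was at 0 in every library. The part of these cells, or of Foxp3-negative T cells, in the Foxp3 level was not tested.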

How the data were processed

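RNA from sorted spleen cells was made into libraries with a low-input full-length cDNA kit and tagmentation, per the labels' protocols. Among the tools in the submitters' processing notes are STAR 2.7.11b for reads and StringTie 2.1.3b, with the build mm39. The strand setting and annotation release are unstated in these sources. Per the file headers, each table gives coverage, FPKM and TPM. The deposited TPM column is treated as a score, since it holds each signal as assembled loci, which sum to 1000000, and as annotated genes. The 10 genes were taken from annotated rows. Coverage, deposited as a signal per base, is shown for the locus, and the most frequent ratio of coverage to the FPKM values the authors deposited gave the aligned depth. There are no read counts, so counting intervals were not used.

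Where a gene ID had several rows, their TPM was added up. Libraries were scaled by the median of their ratios to the gene-wise geometric mean, over genes at 1 or more in all 5 libraries (factors 0.984 to 1.04). Genes at 1 or more in at least 2 libraries, 16254 in all, were fitted on log2(scaled TPM + 1), which understates changes of low genes, with limma 3.58.1 in R 4.3.3 using its trend option. P-values were adjusted by Benjamini-Hochberg and called under 0.05. Named genes were the 10, up to 4 called genes of each list by smallest p, and the 5 closest to Foxp3 after the exclusions given above. Ets1, Stat5b, Tet3, Stat5a, Was, Pim2, Praf2, the escape genes and genes given as not passing were named after their values were seen. Gene types came from GENCODE M21 and promoter sequences from RefSeq, both on GRCm38, and no coordinates were moved between builds. The genes and lists were chosen with earlier results of these data known. The fit was checked on simulated data. Alternatives were no filter or a filter at 5, pseudocounts of 0.1 and 5, unscaled TPM, quantile normalization, a replicate block, each library left out, and the assembled loci.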

Additional observations from a re-analysis of the deposited data

How the results depend on the processing

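The difference of Foxp3 stayed negative under all alternatives run. It was -3.20 with a pseudocount of 5 and -4.13 in the assembled loci, both by construction of the scale or of the rows used, and -3.91 to -3.67 when 1 library was left out. Of the other tested genes at the locus, those with a negative difference kept it under all alternatives run, except Ccdc22, which lay between -0.17 and 0.05. Flicr was at -2.67 with a pseudocount of 0.1 and at -1.29 with one of 5. Ppp1r3f was at -0.10 without WT replicate 3 and at -0.09 with the replicate block. It was at -0.51 without WT replicate 2 and at -0.56 in the assembled loci. Prickle3 lay between -0.62 and -0.37. Plp2 lay between 0.03 and 0.33. Assembled loci gave no value for Flicr, which shares a locus with Foxp3, or for Cacna1f and Syp, which lacked 1 locus per library. For Wdr45 they gave -0.56, from loci that are not alike across libraries. The Wdr45 locus ran on to 7597303, the annotated end of Praf2, in Cebpa_KO replicate 1 and WT replicate 2. Elsewhere it ended at 7594445.

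Of 16254 genes, 3210 were called. With no filter 1559 were called, with 49 against 82 on chromosome X, 3 against 8 among Foxp3 regulators and 1 against 2 among Foxp3 partners, when more genes were tested. Leaving out 1 library gave 23 to 4002 genes in all, 0 to 91 on chromosome X, 0 to 12 regulators, 0 to 3 partners and 0 to 1 of the 30 other genes of the region. The fits with 1 Cebpa_KO library assume that it varies like the WT libraries.

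The replicate numbers in the titles are shared by 2 pairs, whose deviations from the group means correlated at -0.18 and 0.27 over genes. They are not shown to pair the samples. With the replicate block the Foxp3 difference was -3.74, 2409 genes were called, 54 on chromosome X, 4 partners, none of those 30 (3 at an unadjusted p under 0.05, limma), and 7 regulators, of which 4 rose and 3 fell. The depth cannot be turned into counts, so levels near 0, such as those of Cacna1f, have no known precision.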
